A study of Mus musculus with 3 samples.

Results

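The genes described here are the 7 osteoclast genes *Dcstamp*, *Ocstamp*, *Oscar*, *Itgb3*, *Src*, *Calcr* and *Nfatc1*, taken by their symbols from the deposited table of 26970 genes, where each has 1 row. All 7 were found, and all 7 reached the minimum used here, a mean over the 3 libraries of 1 FPKM or more, as did 13026 genes of the table. FPKM is the number of sequenced fragments divided by the length of the gene and the depth of the library, so it can be compared between genes of different length. RNA was sequenced from mandibular condyles, the part of the lower jaw that moves in the temporomandibular joint, taken with cartilage and subchondral bone still joined. The groups were WT mice (+/+), *Dspp*+/- mice (+/-) and *Dspp*-/- mice (-/-), each aged 4 months and on the C57BL/6 background, with 1 library for each genotype. The *Dspp* deletion is a global knockout, present in every cell of the animal and not only in the condyle, and the heterozygous mice came from crosses of *Dspp*-/- mice with C57BL/6 wild-type mice. Each of the WT and *Dspp*+/- libraries was made from pooled tissue of 3 animals, and the number of animals behind the *Dspp*-/- library is not given in the sources used here. The extraction protocol also speaks of triplicates, but the table holds 1 value per gene and genotype.

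With 1 library per genotype there was no replicate error and no test, and each difference below is one between single libraries. The depth, recovered from the values, was 20241576 fragments for WT, against 23613619 for *Dspp*+/- and 22253158 for *Dspp*-/-. Intervals in parentheses are 95% Clopper-Pearson intervals from these fragments, which cover counting error only and neither the spread between mice nor copies made by PCR. The genotype labels could not be checked against the level of *Dspp*, a gene not analysed here. The share of all FPKM taken by mitochondrial genes was 25.02% for WT, against 36.9% for *Dspp*+/- and 37.3% for *Dspp*-/-. *Xist*, the RNA of the inactive X chromosome of female cells, had 2 fragments for WT, against 12084 for *Dspp*+/- and 10563 for *Dspp*-/-, so the pools also differed in the sex of their animals, and genotype and sex cannot be told apart. None of the 7 genes lies on the X chromosome.

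Osteoclasts are large cells with several nuclei that form when precursors of the monocyte lineage fuse, attach to bone through a ring of actin and dissolve it with acid and proteases. The cytokine RANK ligand starts this program, signals from immunoreceptor-type co-receptors such as OSCAR raise calcium, and the calcium-dependent phosphatase calcineurin then brings the transcription factor NFATc1 into the nucleus. NFATc1 is known to switch on many genes of the mature cell, among them the fusion proteins, the beta 3 integrin, the calcitonin receptor and the resorbing enzymes. In subchondral bone of a joint these cells remodel the bone under the cartilage.

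All 7 genes were lower in both mutant libraries than in WT, and for each of them *Dspp*+/- was also below *Dspp*-/-. Counting intervals lay below 1 for each of the 7 genes in each of these 3 comparisons, which share libraries with each other. In *Dspp*+/- the ratio of FPKM to WT ran from 0.322 for *Ocstamp* to 0.716 for *Nfatc1*, and in *Dspp*-/- from 0.440 for *Ocstamp* to 0.897 for *Nfatc1*. On the log2 scale of FPKM + 1, where differences of weakly expressed genes come out smaller than they are, the median of the 7 genes was -1.09 in *Dspp*+/- and -0.58 in *Dspp*-/-, where the median over all 13026 genes was 0.058 and 0.0070. On that scale 4 of the 7 genes, *Dcstamp*, *Ocstamp*, *Oscar* and *Src*, were at least 2-fold lower in *Dspp*+/-, and 2.86% of all genes compared were. In *Dspp*-/- it was 1 of the 7, *Ocstamp*, where 1.37% of all genes were at least 2-fold lower. Between the mutant libraries none of the 7 was at least 2-fold lower in *Dspp*+/- than in *Dspp*-/-, where 0.852% of all genes were, and none was higher, where 0.798% of all genes were. None of the 7 was at least 2-fold higher than WT, while 4.88% of all genes were so in *Dspp*+/- and 4.05% in *Dspp*-/-. The call for *Ocstamp* in *Dspp*-/- sits at the threshold, with a log2 ratio of -1.01, and is lost with upper-quartile scaling and with scaling without mitochondrial genes. Scaling to housekeeping genes put the median of all genes at -0.18 in *Dspp*+/-, and lowered the share of higher genes among those past 2-fold from 63.0% to 35.5% there, from 74.6% to 64.1% in *Dspp*-/- and from 48.4% to 29.2% between the mutants, with all 7 genes still below 0. The 10 housekeeping genes were not all even. *Gapdh* had 3.79 FPKM in WT, against 7.90 in *Dspp*+/- and 2.24 in *Dspp*-/-. Its ratio of *Dspp*+/- to *Dspp*-/- was 3.53 (3.02 to 4.13), and it was the 1 housekeeping gene past 2-fold between the mutants. The part of *Gapdh* in these shifts was not tested. In bulk tissue, fewer osteoclasts, less of these RNAs per osteoclast and another mix of cells in the sample cannot be told apart. Markers of other cells, which also differed between the libraries, are given below.

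**Figure D1:**
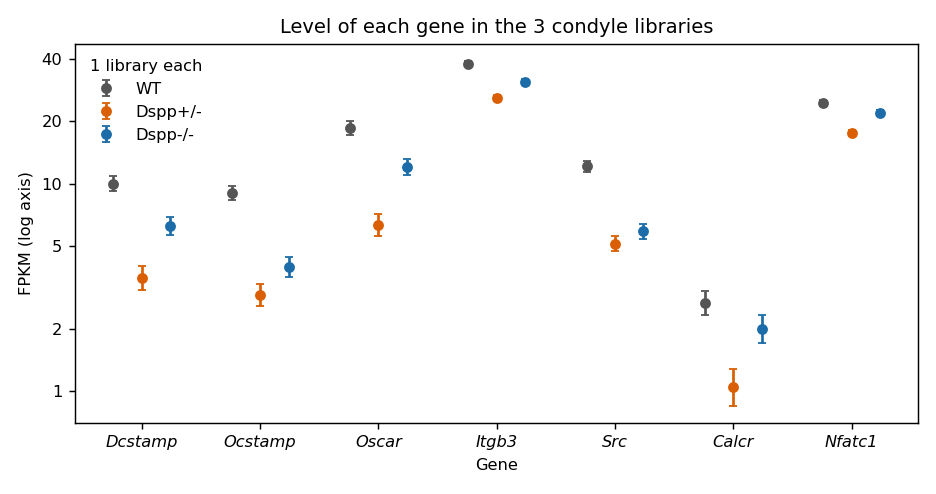
FPKM (vertical log axis) of the 7 genes (horizontal axis) in the WT, *Dspp*+/- and *Dspp*-/- libraries; points are single libraries and bars are 95% Poisson counting intervals. For every gene the WT point is the highest and the *Dspp*+/- point the lowest, from 37.8 FPKM for *Itgb3* in WT to 1.05 for *Calcr* in *Dspp*+/-.

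In WT the order of the levels was *Itgb3*, *Nfatc1*, *Oscar*, *Src*, *Dcstamp*, *Ocstamp* and *Calcr*, from 37.8 to 2.66 FPKM. Neighbours in this order differed beyond counting error except *Dcstamp* and *Ocstamp*, whose ratio was 1.11 (0.987 to 1.24). In *Dspp*+/- the order was the same. In *Dspp*-/- *Dcstamp* stood before *Src*, and these neighbours did not differ beyond counting error, with a ratio of 1.06 (0.927 to 1.21). The exons of the 7 genes overlap those of no other gene in GENCODE M21, and none of their 100-base sequences occurs in a transcript of another gene there. Their fragments can therefore be assigned to them although the library kit is not described as stranded.

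*Dcstamp* and *Ocstamp* encode the multi-pass membrane proteins that precursors need on their surface to fuse into one cell. Positions of genes are those of the deposited table, whose build was not settled here. *Dcstamp*, on chromosome 15 from 39609326 to 39624334 (plus strand), had 9.996 FPKM in WT, against 3.51 in *Dspp*+/- and 6.26 in *Dspp*-/-, from 539, 221 and 371 fragments. The *Dspp*-/- library stood between the others for this gene. Its ratio to WT was 0.351 (0.299 to 0.412) for *Dspp*+/- and 0.626 (0.547 to 0.716) for *Dspp*-/-. *Ocstamp*, on chromosome 2 from 165235680 to 165242325 (minus strand), had 9.02 FPKM in WT, against 2.91 in *Dspp*+/- and 3.97 in *Dspp*-/-, from 668, 251 and 323 fragments. For *Ocstamp* too the *Dspp*-/- library stood between the others, with ratios to WT of 0.322 (0.277 to 0.373) for *Dspp*+/- and 0.440 (0.384 to 0.503) for *Dspp*-/-. *Dspp*+/- over *Dspp*-/- was 0.732 (0.618 to 0.866). The ratio of the pair was also taken within each library, where scaling cannot change it. *Dcstamp* over *Ocstamp* was 1.11 in WT, against 1.21 (1.00 to 1.45) for *Dspp*+/- and 1.58 (1.35 to 1.84) for *Dspp*-/-, and the intervals of WT and *Dspp*-/- do not overlap, while that of *Dspp*+/- overlaps both.

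A list of 12 other genes with a part in cell fusion, written by hand, had medians of -0.30 and -0.14 in the log2 ratios of *Dspp*+/- and *Dspp*-/-. Of the 12, 2 were at least 2-fold lower in *Dspp*+/- and 1 was higher, and in *Dspp*-/- none was lower and 1 was higher. *Siglec15*, a sialic acid receptor of osteoclast precursors, had 17.0 FPKM in WT, against 6.78 in *Dspp*+/- and 12.1 in *Dspp*-/-. *Sh3pxd2a*, which encodes the podosome scaffold TKS5, had 60.1, 28.2 and 40.3 FPKM in the same order. *Atp6v0d2*, a proton pump subunit that is also needed for fusion, had 47.5, 25.4 and 41.5 FPKM. These 3 genes were named for having the lowest log2 ratios of the list in *Dspp*+/-, so their low level there was given by the choice. Of the 12 genes, 8 had log2 ratios below 0 in *Dspp*+/- and 4 above. *Cd9*, a tetraspanin and the gene of the list with the highest WT level, had 119, 80.3 and 102 FPKM. The members with the highest log2 ratios were *Adam8*, a membrane protease gene with 1.04, 4.61 and 3.89 FPKM, *Cd47*, with 20.8, 28.1 and 30.8 FPKM, and *Trem2*, with 1.08, 1.34 and 0.990 FPKM, whose intervals of both ratios include 1.

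*Oscar* encodes the osteoclast-associated receptor, which binds collagen and signals through the adaptor FcR gamma. The gene lies on chromosome 7 from 3612812 to 3619156 (minus strand) and had 18.5 FPKM in WT, against 6.33 in *Dspp*+/- and 12.1 in *Dspp*-/-, from 693, 276 and 496 fragments. The WT library was the highest, *Dspp*-/- was between and *Dspp*+/- was the lowest. Ratios to WT were 0.341 (0.296 to 0.393) for *Dspp*+/- and 0.651 (0.579 to 0.732) for *Dspp*-/-, and *Dspp*+/- over *Dspp*-/- was 0.524 (0.451 to 0.609), the lowest such ratio of the 7 genes. The RefSeq window around its start, 250 bases before to 50 after, is shown because *Oscar* is one of the genes known to be driven by NFATc1 and MITF. It is chr7:3616108-3616407 of GRCm38.p6, minus strand, and capitals mark matches to the NFAT core GGAAA or the MITF motif CATGTG on either strand.
Oscar: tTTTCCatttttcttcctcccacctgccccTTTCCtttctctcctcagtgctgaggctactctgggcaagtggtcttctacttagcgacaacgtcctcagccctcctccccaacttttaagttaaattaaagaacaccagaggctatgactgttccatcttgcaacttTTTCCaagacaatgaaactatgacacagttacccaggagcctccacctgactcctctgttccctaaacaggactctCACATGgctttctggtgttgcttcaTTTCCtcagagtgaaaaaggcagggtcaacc
The window holds 4 matches to GGAAA and 1 to CATGTG, which do not overlap, and none to the AP-1 motif TGANTCA. Of the 32851 windows of the same length in the table, 61.3% hold GGAAA, 14.2% CATGTG and 7.81% TGANTCA, so the first is common. The motifs were chosen after the windows had been read, and a match is a run of letters, not a binding site.

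The list of 9 costimulatory receptors and adaptors, without *Oscar*, had 8 genes above the minimum and lay on the other side of WT, with a median of 0.45 in *Dspp*+/- and 0.40 in *Dspp*-/-. In each mutant library 3 of the 8 were at least 2-fold higher, and *Siglec15* was lower in *Dspp*+/- alone at that threshold. The higher genes were *Cd300lb*, with 1.13 FPKM in WT, against 4.98 in *Dspp*+/- and 5.76 in *Dspp*-/-, *Pirb*, with 2.02, 7.16 and 5.93, and *Fcgr3*, with 5.44, 15.8 and 16.9. These are receptors that neutrophils and monocytes also carry. *Tyrobp*, the adaptor DAP12 and the most abundant gene of the list in WT, had 49.0, 44.4 and 47.6 FPKM, and the intervals of both its ratios include 1. *Fcer1g*, which encodes the adaptor FcR gamma of OSCAR and was singled out after its values were seen, had 18.9, 32.1 and 34.3 FPKM.

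*Itgb3* encodes the beta 3 subunit of integrins, which pairs with alpha v in osteoclasts and with alpha IIb, the product of *Itga2b*, in platelets. The gene, on chromosome 11 from 104498826 to 104561302 (plus strand), was the most abundant of the 7, with 37.8 FPKM in WT, against 25.8 in *Dspp*+/- and 30.9 in *Dspp*-/-, from 4518, 3596 and 4063 fragments. The WT library was again the highest and *Dspp*+/- the lowest, but by less than for the fusion genes. Its ratio to WT was 0.682 (0.653 to 0.713) for *Dspp*+/- and 0.818 (0.784 to 0.854) for *Dspp*-/-. The partner gene *Itgav* had 25.6, 15.0 and 22.2 FPKM, and *Itga2b* had 1.08, 5.62 and 4.42 FPKM. *Itgb3* over *Itgav* was 1.47 (1.42 to 1.53) in WT, against 1.73 (1.65 to 1.81) for *Dspp*+/- and 1.40 (1.34 to 1.45) for *Dspp*-/-. *Itgb3* over *Itga2b* was 35.1 (29.2 to 42.5) in WT, against 4.59 (4.24 to 4.98) for *Dspp*+/- and 6.99 (6.39 to 7.67) for *Dspp*-/-. Of 9 platelet and megakaryocyte markers, 8 reached the minimum, with medians of 1.74 and 1.49 in the log2 ratios of *Dspp*+/- and *Dspp*-/-. *Itga2b* is one of them. The summed level of these 9 markers was 25.5 FPKM in WT, against 134 in *Dspp*+/- and 144 in *Dspp*-/-, led by *Ppbp* (10.4, 75.6 and 86.7 FPKM) and *Pf4* (9.73, 28.5 and 31.6 FPKM), with none at 0 in any library. The part of platelet or megakaryocyte RNA in the level of *Itgb3* was not tested.

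Among the integrin beta subunits, 7 of 8 genes reached the minimum, with medians of -0.14 and -0.08 in the log2 ratios of *Dspp*+/- and *Dspp*-/-. *Itgb3* had the lowest log2 ratio of them in *Dspp*+/-, -0.53, followed by *Itgb5*, whose FPKM was 111 in WT, against 78.7 in *Dspp*+/- and 76.5 in *Dspp*-/-. *Itgb1*, the common subunit, had 174, 137 and 157 FPKM, and *Itgb4* had 1.96, 1.70 and 1.80. Higher in both mutant libraries were *Itgb2*, the leukocyte subunit, with 16.1, 31.4 and 35.2 FPKM, *Itgb7*, with 3.73, 8.21 and 5.86, and *Itgb6*, with 2.01, 4.38 and 2.57. *Itgb8*, with 0.683, 0.540 and 0.792 FPKM, was under the minimum. Of these 7 genes none was at least 2-fold lower in either library, and *Itgb2* was at least 2-fold higher in *Dspp*-/-.

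*Src* encodes the non-receptor tyrosine kinase that acts next to the beta 3 integrin to organise the actin ring and ruffled border. It lies on chromosome 2 from 157260364 to 157313782 (plus strand) and had 12.1 FPKM in WT, against 5.14 in *Dspp*+/- and 5.91 in *Dspp*-/-, from 1072, 531 and 575 fragments. The *Dspp*-/- library lay between the others, nearer to *Dspp*+/- than to WT, as for *Ocstamp*. Ratios to WT were 0.425 (0.382 to 0.472) for *Dspp*+/- and 0.488 (0.440 to 0.540) for *Dspp*-/-, and *Dspp*+/- over *Dspp*-/- was 0.870 (0.772 to 0.981), the highest such ratio of the 7 genes. The window around its start, chr2:157424043-157424342 of GRCm38.p6 on the plus strand, is shown beside that of *Oscar* because the 2 genes differ in base composition there.
Src: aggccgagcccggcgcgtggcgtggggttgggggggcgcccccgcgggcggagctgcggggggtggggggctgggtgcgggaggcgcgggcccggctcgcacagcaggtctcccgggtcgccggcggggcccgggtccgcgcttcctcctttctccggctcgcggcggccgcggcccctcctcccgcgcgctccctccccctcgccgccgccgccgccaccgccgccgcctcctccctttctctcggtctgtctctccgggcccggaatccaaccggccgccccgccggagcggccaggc
This window holds none of the 3 motifs, and 82.3% of its bases are G or C, against 47.3% in the *Oscar* window and a median of 52.7% over all windows. A lower share of G and C than in the *Src* window was found in 99.6% of all windows.

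The *Src* family kinases were divided, with those known from blood cells above WT and the widely expressed ones not. Of the 7 kinases listed, *Src* included, 6 reached the minimum, with medians of 0.35 and 0.48 in the log2 ratios of *Dspp*+/- and *Dspp*-/-. *Src* was the 1 gene at least 2-fold lower, in *Dspp*+/-, while 3 were at least 2-fold higher in *Dspp*+/- and 2 in *Dspp*-/-. *Lyn* had 7.85 FPKM in WT, against 17.1 in *Dspp*+/- and 16.2 in *Dspp*-/- and *Fgr* had 1.37, 5.35 and 6.10. *Blk*, a B cell kinase, had 0.751, 2.89 and 3.10 FPKM, and *Lck*, a T cell kinase under the minimum, had 0.320, 0.868 and 0.752. The widely expressed *Fyn* was lower, with 21.4, 12.9 and 14.6 FPKM, and *Yes1* had 3.88, 2.85 and 3.88. *Src* over *Fyn*, within the same library, was 0.565 (0.524 to 0.610) in WT, against 0.398 (0.359 to 0.440) for *Dspp*+/- and 0.406 (0.368 to 0.448) for *Dspp*-/-, with intervals that overlap only between the mutants.

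**Figure D2:**
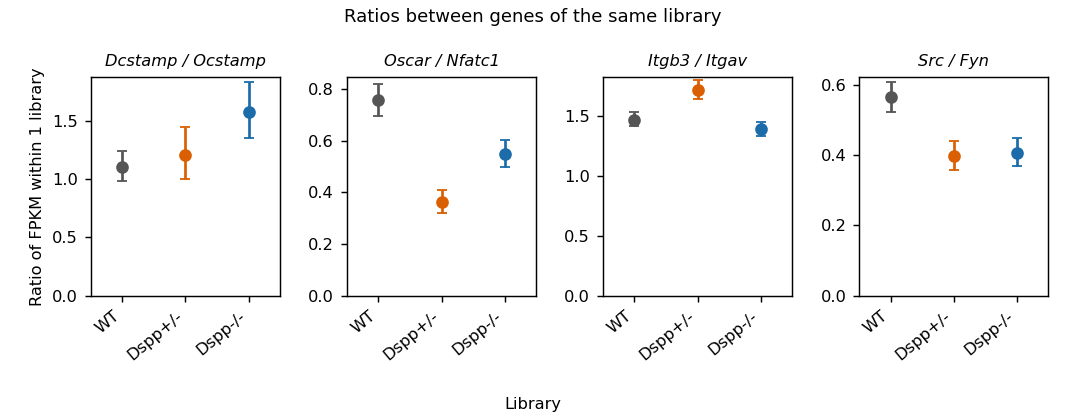
Ratio of FPKM of 2 genes within 1 library (vertical axis, from 0) for the WT, *Dspp*+/- and *Dspp*-/- libraries (horizontal axis), for 4 pairs of genes; points are single libraries and bars 95% Clopper-Pearson intervals. *Dcstamp* over *Ocstamp* is highest in *Dspp*-/- (1.58), *Oscar* over *Nfatc1* is lowest in *Dspp*+/- (0.361), *Itgb3* over *Itgav* is highest in *Dspp*+/- (1.73), and *Src* over *Fyn* is highest in WT (0.565).

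Of the 21 genes for integrin and *Src* signalling, all at or above 1 FPKM, none was at least 2-fold lower in either mutant library. In *Dspp*+/- 5 were at least 2-fold higher and in *Dspp*-/- 1 was, and the median was 0.37 and 0.20. The highest log2 ratios in *Dspp*+/- were those of *Was*, with 2.84 FPKM in WT, against 9.16 in *Dspp*+/- and 8.76 in *Dspp*-/-, *Fermt3* (kindlin-3), with 3.41, 10.2 and 7.10, and *Btk*, with 2.01, 5.65 and 4.24. All 3 are genes known from blood cells. The lowest were those of *Itgav*, *Itgb5* and *Itgb1*, given above. *Gsn*, the actin-severing gelsolin and the most abundant gene of the list in WT, had 440, 377 and 313 FPKM. Of the 21, 5 had log2 ratios below 0 and 16 above in *Dspp*+/-, and 6 below and 15 above in *Dspp*-/-. *Itgav*, *Itgb5*, *Itgb1*, *Gsn* and *Pik3r1* were below 0 in both mutant libraries, as were *Src* and *Itgb3*.

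*Calcr* encodes the calcitonin receptor, through which the hormone calcitonin halts resorption, and it is a late marker of the osteoclast. Its gene, on chromosome 6 from 3685680 to 3764714 (minus strand), had the lowest levels of the 7, with 2.66 FPKM in WT, against 1.05 in *Dspp*+/- and 1.999 in *Dspp*-/-. These values rest on 211, 97 and 174 fragments, the fewest of the 7 genes, and 3 fragments would be worth 0.0379 FPKM in WT. Its ratio to WT was 0.394 (0.307 to 0.504) for *Dspp*+/- and 0.750 (0.610 to 0.921) for *Dspp*-/-. The first interval reaches past a ratio of 0.5, and on the scale of FPKM + 1 the log2 ratio was -0.84, so *Calcr* is not counted among the genes at least 2-fold lower. Without a pseudocount, an alternative chosen after seeing the data, 5 genes in *Dspp*+/- and 2 in *Dspp*-/- were at least 2-fold lower, with *Calcr* added in *Dspp*+/- and *Src* in *Dspp*-/-. RefSeq gives *Calcr* 2 start windows, and the outer one, chr6:3764664-3764963 of GRCm38.p6 on the minus strand, is shown as the one of the pair with a motif match, with its match to GGAAA in capitals.
Calcr: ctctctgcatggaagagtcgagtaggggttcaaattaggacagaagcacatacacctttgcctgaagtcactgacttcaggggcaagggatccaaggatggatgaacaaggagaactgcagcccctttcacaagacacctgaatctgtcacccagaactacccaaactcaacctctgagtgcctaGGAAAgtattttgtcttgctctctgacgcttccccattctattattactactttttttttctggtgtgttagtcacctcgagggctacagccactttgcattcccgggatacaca
The inner window, from 3763574 to 3763873, has 70.0% G and C and none of the 3 motifs. Windows were matched for 3 of the 7 genes, *Calcr*, *Oscar* and *Src*.

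In the calcitonin receptor family, *Calcr* and 4 genes for the related receptor and the accessory proteins that alter ligand choice, the log2 ratios had medians of -0.49 and -0.29 in *Dspp*+/- and *Dspp*-/-. *Ramp3* was at least 2-fold lower in both mutant libraries, the 1 gene of the 5 to be so in each, with 6.12 FPKM in WT, against 1.04 in *Dspp*+/- and 2.47 in *Dspp*-/-. *Ramp1* had 20.2, 14.1 and 13.1 FPKM, and *Ramp2* had 12.2, 11.2 and 12.1. *Calcrl*, whose product pairs with these proteins in vessels, had 7.84, 7.86 and 10.1 FPKM. *Calcr* over *Calcrl* was 0.340 (0.290 to 0.396) in WT, against 0.134 (0.107 to 0.165) for *Dspp*+/- and 0.198 (0.168 to 0.233) for *Dspp*-/-.

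*Nfatc1* encodes the transcription factor at the head of the program, and of the 7 genes its level differed least from WT. The gene, on chromosome 18 from 80649420 to 80756286 (minus strand), had 24.5 FPKM in WT, against 17.5 in *Dspp*+/- and 21.9 in *Dspp*-/-, from 3699, 3088 and 3646 fragments. Its ratio to WT was 0.716 (0.682 to 0.751) for *Dspp*+/- and 0.897 (0.856 to 0.939) for *Dspp*-/-. The 5 genes *Dcstamp*, *Ocstamp*, *Oscar*, *Src* and *Calcr* stood lower against it in *Dspp*+/- than in WT, as the ratios within each library show. *Oscar* over *Nfatc1* was 0.758 (0.698 to 0.822) in WT, against 0.361 (0.318 to 0.409) for *Dspp*+/- and 0.550 (0.4999 to 0.604) for *Dspp*-/-. *Dcstamp* over *Nfatc1* was 0.409 (0.373 to 0.447), 0.201 (0.174 to 0.230) and 0.285 (0.256 to 0.318) in the same order. *Ocstamp*, *Src* and *Calcr* over *Nfatc1* were likewise lower in *Dspp*+/- than in WT, with intervals that do not overlap. *Itgb3* kept the nearest proportion, 1.55 (1.48 to 1.62) in WT, against 1.47 (1.40 to 1.55) for *Dspp*+/- and 1.41 (1.35 to 1.48) for *Dspp*-/-.

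**Figure D3:**
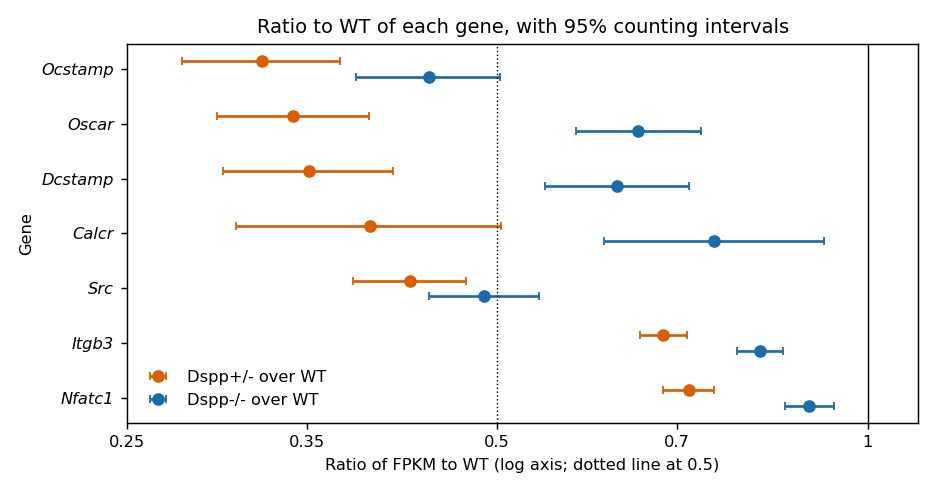
Ratio of FPKM to WT (horizontal log axis, with lines at 1 and 0.5) of each gene (vertical axis) in *Dspp*+/- and in *Dspp*-/-; points are ratios of single libraries and bars 95% Clopper-Pearson intervals. In *Dspp*+/- *Ocstamp*, *Oscar*, *Dcstamp*, *Calcr* and *Src* lie between 0.322 and 0.425, and *Itgb3* and *Nfatc1* at 0.682 and 0.716.

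In *Dspp*+/- the 7 genes divided into 5 with ratios to WT between 0.322 and 0.425, whose intervals overlap or touch those of a neighbour, and 2, *Itgb3* and *Nfatc1*, whose intervals lie above all of theirs. In *Dspp*-/- the order was another, with *Ocstamp* and *Src* lowest, at 0.440 and 0.488, and *Dcstamp*, *Oscar* and *Calcr* between 0.626 and 0.750. *Itgb3* and *Nfatc1* were again the nearest to WT, though the interval of *Calcr* overlaps theirs there.

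The NFAT family holds 5 genes, all above the minimum, with medians of -0.46 and -0.15 in the log2 ratios of *Dspp*+/- and *Dspp*-/-, and none past 2-fold. *Nfatc1* was the most abundant of them in each library. *Nfatc2* had 5.19 FPKM in WT, against 2.64 in *Dspp*+/- and 3.53 in *Dspp*-/-, and *Nfatc4* had 7.86, 5.33 and 5.11. *Nfatc3* had 8.05, 8.91 and 10.2 FPKM, and *Nfat5*, the family member that responds to osmotic stress, had 14.8, 12.4 and 16.3. *Nfatc1* over *Nfatc3* was 3.04 (2.88 to 3.21) in WT, against 1.96 (1.86 to 2.07) for *Dspp*+/- and 2.14 (2.04 to 2.26) for *Dspp*-/-.

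A list of 19 *Nfatc1* activators also held genes outside RANK signalling, such as *Csf1r*. Its medians were -0.06 in *Dspp*+/- and -0.01 in *Dspp*-/-. In *Dspp*-/- none passed 2-fold in either direction, and in *Dspp*+/- none was higher and 2 were at least 2-fold lower. The 2 were *Tnfrsf11a*, the gene of the receptor RANK, with 5.73 FPKM in WT, against 2.101 in *Dspp*+/- and 3.91 in *Dspp*-/-, and *Jdp2*, an AP-1 family gene, with 36.0, 17.4 and 19.7. *Csf1r*, the receptor for macrophage colony-stimulating factor and the most abundant gene of the list in WT, had 43.2, 25.1 and 33.2 FPKM. The highest log2 ratios in *Dspp*+/- were those of *Fos*, with 5.08, 8.64 and 11.1 FPKM, *Ppp3cb*, a calcineurin subunit, with 17.0, 22.5 and 22.4, and *Ikbkb*, with 2.57, 3.23 and 2.83. The other calcineurin genes of the list, *Ppp3ca* and *Ppp3r1*, had log2 ratios of -0.11 and -0.06 in *Dspp*+/- and were picked after their values were seen.

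Of 10 genes that restrain *Nfatc1*, 1 was at least 2-fold lower and 1 higher in *Dspp*+/-, and 1 was lower in *Dspp*-/-, with medians of 0.07 and 0.10. *Irf8*, a repressor lost as osteoclasts form and also a myeloid and B cell factor, had 2.20 FPKM in WT, against 6.23 in *Dspp*+/- and 3.90 in *Dspp*-/-. *Bach2*, which B cells express, had 1.90, 4.10 and 3.802 FPKM, and *Dyrk1a*, a kinase that returns NFAT to the cytoplasm, had 10.4, 12.4 and 13.1. *Id3*, the most abundant gene of the list in WT, had 156, 71.6 and 79.0 FPKM, *Id1* had 39.8, 28.8 and 18.1, and *Id2* had 38.8, 29.1 and 31.0. A list of 4 genes held cytokines that feed the pathway and a decoy receptor that blocks 1 of them. All 4 had log2 ratios below 0 in both mutant libraries, and the counting interval of *Il34* in *Dspp*+/- includes 1. *Tnfsf11*, which encodes RANK ligand, had 14.3, 4.85 and 8.56 FPKM, *Tnfrsf11b*, its decoy receptor OPG, had 23.4, 13.9 and 14.8, *Csf1* had 14.2, 10.5 and 10.4, and *Il34* had 8.196, 7.61 and 6.31. These 4 had medians of -0.56 and -0.52, and only *Tnfsf11* in *Dspp*+/- was at least 2-fold lower.

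The 7 genes were set beside 11 genes of the resorption machinery, with medians of -0.68 and -0.56 in the log2 ratios of *Dspp*+/- and *Dspp*-/-. Of the 11, 3 were at least 2-fold lower in *Dspp*+/- and none in *Dspp*-/-. These were *Ctsk* (cathepsin K), with 863 FPKM in WT, against 279 in *Dspp*+/- and 481 in *Dspp*-/-, *Acp5* (the enzyme stained as TRAP), with 756, 248 and 399, and *Mmp9*, with 552, 239 and 371. *Car2*, for carbonic anhydrase II, an enzyme also abundant in erythrocytes, was at least 2-fold higher in both, with 9.83, 65.4 and 49.4 FPKM. Minus the list's median, the log2 ratio in *Dspp*+/- was -0.74 for *Oscar*, -0.68 for *Ocstamp*, -0.61 for *Dcstamp*, -0.41 for *Src*, -0.16 for *Calcr*, 0.14 for *Itgb3* and 0.22 for *Nfatc1*. The same difference in *Dspp*-/- was -0.021 for *Oscar*, -0.45 for *Ocstamp*, -0.040 for *Dcstamp*, -0.36 for *Src*, 0.27 for *Calcr*, 0.28 for *Itgb3* and 0.41 for *Nfatc1*, so *Oscar* and *Dcstamp* lay close to the list's median there and *Calcr* above it. For the weakly expressed *Calcr*, adding 1 FPKM shrinks the log2 ratio. In *Dspp*+/- its ratio of FPKM to WT, 0.394, was below the 0.425 of *Src*. As a percentage of the level of *Acp5* in the same library, *Dcstamp* was 1.32% (1.21 to 1.44) in WT, against 1.42% (1.24 to 1.62) for *Dspp*+/- and 1.57% (1.41 to 1.74) for *Dspp*-/-. *Oscar* was 2.45% (2.27 to 2.64), 2.56% (2.26 to 2.88) and 3.03% (2.76 to 3.31) of *Acp5* in the same order. *Ocstamp* was 1.19% (1.104 to 1.29), 1.17% (1.03 to 1.33) and 0.995% (0.889 to 1.11). *Calcr* was 0.353% (0.306 to 0.404), 0.424% (0.344 to 0.518) and 0.501% (0.429 to 0.582). For these 4 genes the intervals of WT and *Dspp*+/- overlap, but those of *Oscar* and *Calcr* in *Dspp*-/- lie above WT. *Itgb3* was 5.004% (4.85 to 5.16) of *Acp5* in WT, against 10.4% (10.04 to 10.8) for *Dspp*+/- and 7.76% (7.50 to 8.03) for *Dspp*-/-. *Nfatc1* was 3.24% (3.13 to 3.35), 7.07% (6.79 to 7.36) and 5.50% (5.31 to 5.70) in the same order. *Src* was 1.60% (1.51 to 1.70), 2.08% (1.90 to 2.27) and 1.48% (1.36 to 1.61). Against *Acp5*, then, *Dcstamp*, *Ocstamp*, *Oscar* and *Calcr* kept their proportion within counting error in *Dspp*+/-, while *Itgb3*, *Nfatc1* and *Src* stood higher. *Itgb3*, *Nfatc1*, *Oscar* and *Calcr* stood higher in *Dspp*-/- than in WT, and the intervals of *Dcstamp*, *Ocstamp* and *Src* overlap those of WT. Taken over *Ctsk* instead, *Oscar* was 2.15% (1.99 to 2.32) in WT and 2.51% (2.29 to 2.74) in *Dspp*-/-, with overlapping intervals. *Ocstamp* was 1.05% (0.967 to 1.13) of *Ctsk* in WT and 0.825% (0.736 to 0.921) in *Dspp*-/-, with intervals that do not overlap. For *Oscar* and *Ocstamp* the reading in *Dspp*-/- thus depends on the gene divided by.

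**Figure D4:**
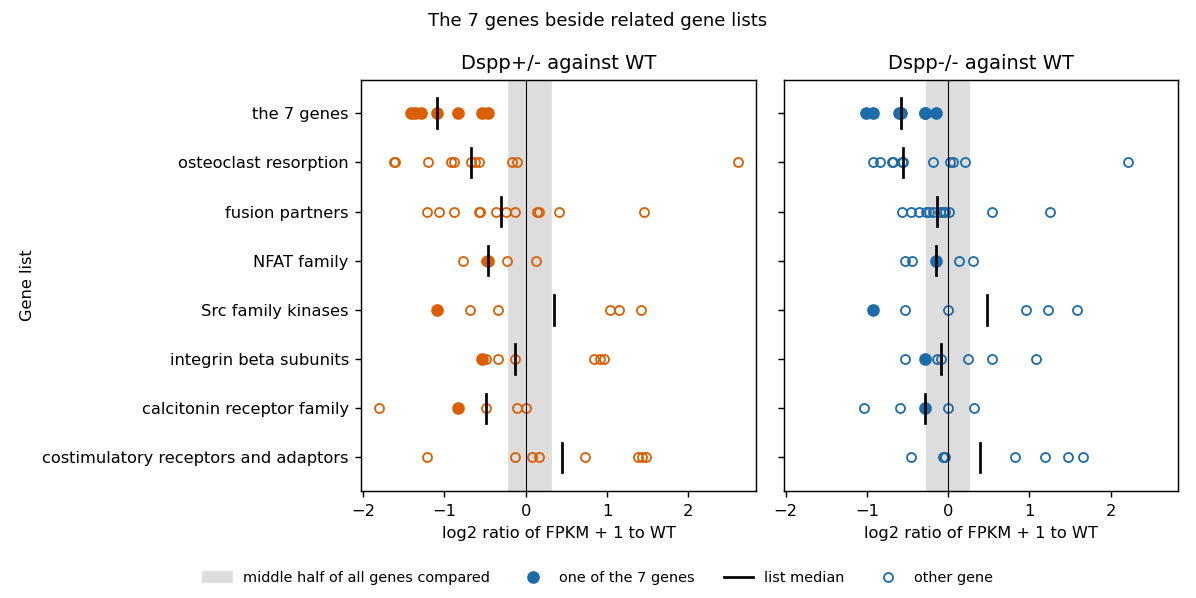
Log2 ratio of FPKM + 1 to WT (horizontal axis) of the 7 genes and of the genes of 7 related lists (vertical axis), in *Dspp*+/- (left) and *Dspp*-/- (right); filled points are the 7 genes, open points other genes of at least 1 FPKM, black bars list medians, and the grey band the quartiles of all 13026 genes (-0.21 to 0.31 and -0.26 to 0.26). The 7 genes all lie below 0, with a median of -1.09 on the left and -0.58 on the right, while the *Src* family and costimulatory lists have medians above 0.

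Markers of other cells moved in the same libraries, and their part in the values of the 7 genes was not tested. The leading markers named are those with the highest mean over the 3 libraries. Summed FPKM of 9 neutrophil markers, led by *S100a9* and *S100a8*, was 593 in WT, against 2667 in *Dspp*+/- and 3491 in *Dspp*-/-, and all 9 were at least 2-fold higher in both mutants. For 9 erythroid markers, led by *Hbb-bs* and *Hba-a1*, the sums were 904, 3763 and 3641 FPKM, again with all 9 higher. For 7 B cell markers, led by *Cd79b* and *Cd79a*, the sums were 17.6, 61.9 and 45.6 FPKM, with 5 of the 6 above the minimum higher in each. The sums of 11 macrophage and monocyte markers, led by *Cd68* and *C1qb*, were 201, 211 and 198 FPKM, and 2 of the 11, *Ly6c2* and *Ccr2*, were at least 2-fold higher in each. *Csf1r*, which is above *C1qb* in WT and *Dspp*-/-, was lower in both mutants, as given above. Bone and cartilage markers were lower. Sums of 8 osteoblast markers, led by *Col1a1* and *Col1a2*, were 12772, 3356 and 6736 FPKM, with 7 of 8 at least 2-fold lower in *Dspp*+/- and 2 in *Dspp*-/-. Sums of 5 osteocyte markers, led by *Mepe* and *Sost*, were 884, 364 and 350 FPKM, with 3 of 4 above the minimum lower in each. Sums of 8 chondrocyte markers, led by *Col2a1* and *Comp*, were 1602, 452 and 704 FPKM, with 5 of 7 lower in each. The 8 osteoclast markers, led by *Ctsk* and *Acp5* and all among the resorption genes, summed to 2286, 834 and 1340 FPKM. Of the 11 resorption genes, this list leaves out *Car2*, given above, *Snx10* and *Plekhm1*. For *Snx10* the ratio of FPKM to WT was 0.599 in *Dspp*+/- and 1.02 in *Dspp*-/-, and for *Plekhm1* 0.883 and 1.05. All 11 summed to 2324, 920 and 1418 FPKM. The 8 markers are thus a part of that list and not a separate set of genes. Sums of 6 skeletal muscle markers, led by *Acta1* and *Tnnt3*, were 9786, 13612 and 10945 FPKM. Of these 6, none was at least 2-fold higher in either mutant library, and *Myh4* was lower in *Dspp*+/-, with a log2 ratio of -2.70, against -0.15 in *Dspp*-/-. *Tnnt3* and *Mb* were also below WT in *Dspp*-/-, with log2 ratios of -0.25 and -0.35. Sums of 6 endothelial markers, led by *Cdh5* and *Pecam1*, were 131, 147 and 143 FPKM, with none of the 6 past 2-fold. No marker was at 0 in any library, so cartilage, bone, marrow and muscle RNA was found in all 3.

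Among 7121 other genes that averaged 5 FPKM or more, those nearest to the medians of the 7 genes in the 2 log2 ratios were *Mpzl1*, *Sh3pxd2a*, *Tnn*, *Fkbp9* and *Ostc*, at distances from 0.017 to 0.054. Likeness was the Euclidean distance between pairs of log2 ratios over 3 libraries, and with 3 values per gene many genes lie close. *Mpzl1* had 22.0 FPKM in WT, against 9.66 in *Dspp*+/- and 14.3 in *Dspp*-/-, and *Tnn*, a matrix gene, had 221, 106 and 148. *Sh3pxd2a* is also one of the fusion genes named above.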

How the data were processed

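RNA was sequenced from condyles of WT, *Dspp*+/- and *Dspp*-/- mice, 1 library each. The authors deposited 1 table of values per gene with an unnamed unit, read here as FPKM. The submitters' processing notes name FastQC 0.11.5, HISAT2 2.1.0, StringTie 1.3.3b, DESeq 1.28.0 and hg38, a human build. Table positions are not those of GRCm38, since 563 of 26641 genes in GENCODE M21 share start and end.

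Multiplying FPKM by M21 exon length returned whole fragments, within 0.05, for 98.6% to 98.7% of genes under 100 fragments, which gave depth and counting intervals. The study's Kruskal-Wallis test needs replicates, so no p-value is given. Genes averaging 1 FPKM or more were compared as log2 ratios of FPKM + 1, at 2-fold. Named were the 7 genes, whole lists of up to 8 genes, of longer lists the most abundant in WT and up to 3 extremes each way in *Dspp*+/-, 2 leading markers per marker list and the 5 genes nearest in pattern. The members and lists were chosen with earlier results of these data known. Results were recomputed in 11 other ways, and in 1 more chosen after seeing the data. Sequences are from RefSeq, GRCm38.p6. Scripts were tested on simulated data and ran in Python 3.11.15 with matplotlib 3.10.9, numpy 2.4.6, scipy 1.17.1 and pandas 2.3.3. A withheld item is not reported here.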

Additional observations from a re-analysis of the deposited data

Results flagged for a closer look

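*Jun* and *Nfat5* stood on opposite sides of WT in the 2 mutant libraries, with counting intervals clear of 1 in both. *Jun* had log2 ratios of 0.11 in *Dspp*+/- and -0.17 in *Dspp*-/-, and *Nfat5* had -0.23 and 0.13. The difference between the mutants was not tested, since each is 1 library. Scaling to housekeeping genes moved the median of all genes to -0.18 in *Dspp*+/-, and scaling without mitochondrial genes to 0.15. *Jun* and *Nfat5* were not recomputed under these scalings. Housekeeping scaling moved *Itgb3*, a gene of similar level to *Jun*, from -0.53 to -0.82 in *Dspp*+/-, a step larger than the 0.11 of *Jun*. The place of *Jun* above WT in *Dspp*+/- therefore depends on the scaling.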

How the results depend on the processing

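The direction of the 7 genes against WT, and of *Dspp*+/- against *Dspp*-/-, was the same under the 8 alternatives that give each gene a value: of 168 values, 0 reversed, 140 stayed within the gene's counting interval and 28 moved outside it. Alternatives that change only the pseudocount keep the sign of every difference. Their values could not reverse, and only those from another scaling could. No paired analysis was possible because each genotype has 1 library, and no library could be left out. The number of the 7 genes at least 2-fold lower was 4 in *Dspp*+/- and 1 in *Dspp*-/-. It became 5 and 2 with a pseudocount of 0.1 and with none (an alternative added after seeing the data), and 1 and 0 with a pseudocount of 5. In *Dspp*-/- it was 0 with upper-quartile scaling, 0 with scaling without mitochondrial genes and 2 with scaling to housekeeping genes; scaling without mitochondrial genes left 3 in *Dspp*+/-, without *Src*. A threshold of 1.5-fold gave 5 and 3, and 2 in *Dspp*+/- against *Dspp*-/-; a threshold of 4-fold gave 0 in *Dspp*+/- and 0 in *Dspp*-/-. The median of the 7 log2 ratios in *Dspp*+/- (-1.09) was -1.27 with a pseudocount of 0.1, -0.75 with 5, -1.34 with none and -1.34 with housekeeping scaling, where the cause was not tested. That scaling put the median of all genes at -0.18 and the share of higher genes among those past 2-fold at 35.5%, from 63.0%; without mitochondrial genes they were 0.15 and 72.4%.

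Over all genes, lower and higher counts at 2-fold were 373 and 636 in *Dspp*+/-, 179 and 527 in *Dspp*-/-, and 111 and 104 between the mutants. With a pseudocount of 0.1 they were 605 and 971, 363 and 836, and 223 and 214; with 5 they were 156 and 185, 45 and 136, and 36 and 36. With none, 625 were lower in *Dspp*+/-, 373 lower and 815 higher in *Dspp*-/-, and 214 and 197 between the mutants. No filter gave 172 and 170 between the mutants. A mean of at least 5 FPKM, where fewer genes were compared and *Calcr* was left out, gave 281 higher in *Dspp*+/-, 110 and 228 in *Dspp*-/-, and 57 and 52 between the mutants. Housekeeping scaling gave 698 and 384 in *Dspp*+/- and 62 higher between the mutants. At 1.5-fold they were 1166 and 1501, 1070 and 1152, and 441 and 563; at 4-fold 24 and 124, 6 and 103, and 15 and 13. Depth limits *Calcr* most, with 97 fragments in *Dspp*+/-.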
